A study of Homo sapiens with 6 samples.

Results

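The neutrophil-attracting CXC chemokine genes CXCL1, CXCL2, CXCL3, CXCL5, CXCL6 and CXCL8 (CXCL8 encodes interleukin 8) were described in HCA-7, an established human colorectal cancer cell line whose colonies in collagen gels are either spiky or cystic. The 6 genes were taken by name, and all 11 probe sets that the platform's table gives to one of them alone were used. The array holds 54675 probe sets, and 19775 genes have one named for them alone. They were chosen by their known log2 differences between spiky and cystic colonies as well as by family, so that difference is described without a test. The spiky line (sc1) and the cystic line (cc3) were each grown in type 1 collagen in 12-well dishes, and total RNA of the cell-containing layer was hybridised to Affymetrix U133 Plus 2.0 arrays at day 5, 10 and 15, with 1 array per line and day. The labels give no treatment or genotype that separates the groups other than the line. Colony shape and line cannot be told apart, as sc1 is the only spiky and cc3 the only cystic line. The 3 days stood in as replicates of a line. No label describes them as independent cultures. In the fit with line and day as factors, the spread behind each p-value starts from how far the lines disagreed over the days for that gene. With so few arrays, limma then moves it toward a prior taken from all tested genes of like level. The resulting spread does not measure the spread between independent cultures, and part of it may be technical. In bulk RNA, fewer cells that express a gene and less of its RNA per cell cannot be told apart.

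CXC chemokines of this group carry a glutamate-leucine-arginine motif before their first cysteines and attract neutrophils by binding the receptors CXCR1 and CXCR2. Epithelial cells of the intestine make them after signals such as interleukin 1, TNF and bacterial products, in large part through the transcription factor NF-kB, and their messenger RNAs are short-lived. The genes lie together on chromosome 4, in the order CXCL8, CXCL6, CXCL1, CXCL5, CXCL3 and CXCL2, with PF4V1, PF4 and PPBP between them.

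The promoters show what the 6 genes have in common next to the start of transcription. All 6 were found by symbol in the RefSeq promoter table (GRCh38.p14). The stretch from 140 bases to 1 base before the transcript start is given 5′ to 3′ on the gene's own strand, with capitals marking a match to GGAATTTCC, a form of the NF-kB motif:

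CXCL1 (chr4:73869253-73869392, plus strand): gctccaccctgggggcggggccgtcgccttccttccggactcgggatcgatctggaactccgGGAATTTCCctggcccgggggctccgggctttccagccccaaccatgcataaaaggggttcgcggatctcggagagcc
CXCL2 (chr4:74099196-74099335, minus strand): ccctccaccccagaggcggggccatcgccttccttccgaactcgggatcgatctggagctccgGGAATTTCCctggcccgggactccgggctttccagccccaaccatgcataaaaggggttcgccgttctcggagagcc
CXCL3 (chr4:74038690-74038829, minus strand): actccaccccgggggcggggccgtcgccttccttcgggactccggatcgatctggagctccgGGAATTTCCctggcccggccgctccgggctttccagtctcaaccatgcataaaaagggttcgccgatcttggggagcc
CXCL5 (chr4:73998678-73998817, minus strand): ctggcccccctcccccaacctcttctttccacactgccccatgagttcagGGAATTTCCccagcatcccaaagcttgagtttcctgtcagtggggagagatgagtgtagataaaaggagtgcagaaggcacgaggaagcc
CXCL6 (chr4:73836538-73836677, plus strand): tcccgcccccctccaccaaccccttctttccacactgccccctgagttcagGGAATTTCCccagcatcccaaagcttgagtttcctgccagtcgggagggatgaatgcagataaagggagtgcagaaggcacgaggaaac
CXCL8 (chr4:73740429-73740568, plus strand): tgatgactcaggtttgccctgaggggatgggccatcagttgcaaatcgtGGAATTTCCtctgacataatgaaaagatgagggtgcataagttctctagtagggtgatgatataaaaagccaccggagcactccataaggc

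GGAATTTCC, searched on both strands of the 250 bases before and 50 bases after the start, was in 6 of these 6 promoters and in 162 of all 35116 (0.461%). It began 77 or 78 bases before the start in CXCL1, CXCL2 and CXCL3, and 89 to 91 bases before it in CXCL5, CXCL6 and CXCL8. CXCL8 alone among the 6 held the AP-1 motif TGANTCA, which is its own reverse complement, 137 bases before the start (7.71% of all promoters), and the letters TATAAA, 31 bases before the start (11.5% of all promoters). Over 60 bases placed on the NF-kB motif, CXCL5 and CXCL6 had 98.3% identical bases, CXCL1 and CXCL3 93.3%, and CXCL8 at most 40.0% with any other member. A match is a description of these letters and not of binding.

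**Figure D1:**
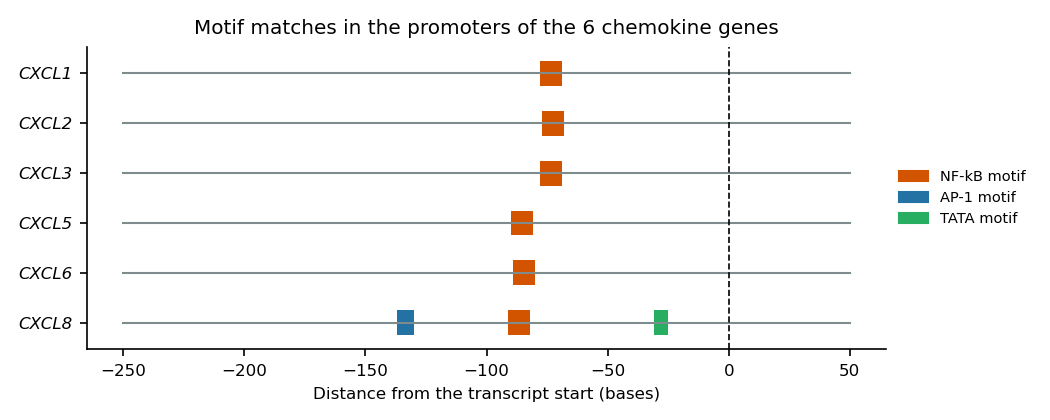
Matches to the NF-kB, AP-1 and TATA motifs in the promoters of the 6 chemokine genes, by distance from the transcript start in bases (dashed line). The NF-kB motif lies 77 to 91 bases before the start in all 6 genes, and the AP-1 and TATA motifs were matched in CXCL8 only.

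The values are log2 expression from RMA. Array medians lay between 5.18 and 5.34, and a mean of log2 5 over the 6 arrays was taken as the lower limit for testing, a level that 53.9% of all probe sets reached. Levels of different probe sets are not comparable with each other. The epithelial markers EPCAM, KRT8, KRT18, KRT19 and CDH1 were bright in both lines, EPCAM at 11.8 in spiky and 11.8 in cystic colonies (log2 means). The epithelial marker VIL1 was lower in spiky colonies (-0.68, limma adjusted p = 0.0411). That call was lost without either day 5 or either day 10 array (adjusted p up to 0.290). The intestinal markers KRT20, CDX1, CDX2 and GPA33 had means under log2 5 in both lines. Of 15 leukocyte markers on the array, PTPRC, CD3E and the neutrophil markers CSF3R and FCGR3B stayed at or below log2 3.95 on every array. The summed linear level of the 15 markers was 523 to 903 on the spiky and 969 to 1984 on the cystic arrays, with LYZ at -1.34 and LCP1 at -1.45 (log2, spiky minus cystic, both passing limma's test) and CSF1R, CORO1A and CD3D not passing. With day left out of the fit LYZ no longer passed (limma adjusted p = 0.348), while LCP1 did. The part of the leukocyte markers in the chemokine differences was not tested.

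CXCL1, CXCL2, CXCL3 and CXCL8 passed the limit of log2 5, through 5 probe sets, and CXCL5 and CXCL6 did not. On all 5 probe sets every spiky array lay below every cystic array. This was so for 10.1% of the 12317 tested genes, of which 11.4% were called by limma for spiky against cystic. Since the genes were gathered with this contrast known, nothing is read from the count. CXCL1, CXCL3 and CXCL8 had the 4th, 6th and 21st lowest difference of all tested genes. These ranks are on the contrast the genes were chosen by, so nothing is read from them either. CXCL2 is given no rank, since all its spiky arrays were under log2 5 (mean 4.77) and it passed the limit through the cystic arrays. The median difference over the 4 genes was -3.10, and -2.98 with arrays under log2 5 set to 5, beside -0.03 over all tested genes (log2). Both this median and the 5 probe sets above include CXCL2, so they are a description only.

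CXCL1, also known as GRO-alpha, was at 6.18, 5.34 and 5.43 in spiky colonies at day 5, 10 and 15, against 9.11, 10.09 and 8.001 in cystic colonies (log2). The groups did not overlap, with the highest spiky array 1.82 below the lowest cystic one. Means were 5.65 ± 0.46 in spiky and 9.06 ± 1.04 in cystic colonies (SD over 3 days, which includes change with day). The gap was not even over the culture: the cystic level exceeded the spiky level 7.59-fold at day 5, 26.8-fold at day 10 and 5.92-fold at day 15.

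CXCL3, a close relative of CXCL1, was at 5.46, 5.83 and 5.38 in spiky and at 8.60, 9.55 and 8.05 in cystic colonies at day 5, 10 and 15. The groups were 2.22 apart at their nearest arrays. The cystic level exceeded the spiky level 8.85-fold, 13.2-fold and 6.39-fold at the 3 days.

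CXCL2, the third gene of the GRO group, was measured by 3 probe sets, of which only 209774_x_at reached the limit. On it the spiky arrays were at 4.89, 4.53 and 4.89, all close to background, against 7.69, 8.59 and 7.08 on the cystic arrays at day 5, 10 and 15. With spiky values set to log2 5, the cystic level was at least 6.44-fold, 12.1-fold and 4.21-fold higher at these days. The ending _x_at means that some probes can also match other sequences, and CXCL1 and CXCL3 are close relatives, so this signal may hold their RNA too. Over the 6 arrays it correlated at 0.991 with CXCL1 and at 0.987 with CXCL3, a description over arrays that fall into 2 lines. The other CXCL2 probe sets, 1569203_at and 230101_at, carry no such ending and were dim: in cystic colonies they were at 4.55, 5.07 and 4.02 and at 3.98, 5.24 and 4.10, and only the day 10 array exceeded log2 5. In spiky colonies both stayed between 3.33 and 3.98. At day 5 the difference on 230101_at was -0.00 and on 1569203_at -0.69, beside -2.80 on 209774_x_at.

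CXCL8, the best studied neutrophil attractant, was measured by 2 probe sets that ran in parallel (r = 0.996 over 6 arrays). Neither has the plain _at ending: 202859_x_at has the ending explained for CXCL2, and 211506_s_at ends in _s_at. Their r therefore does not show that either measures CXCL8 alone. On 211506_s_at the spiky arrays were at 7.12, 7.17 and 5.64 and the cystic arrays at 9.18, 10.25 and 7.48 at day 5, 10 and 15. The groups came within 0.30 of each other, as the lowest cystic array, day 15, was near the highest spiky arrays of earlier days. Within each day the cystic level was 4.15-fold, 8.43-fold and 3.59-fold the spiky level. On 202859_x_at the spiky arrays were at 5.72, 5.75 and 4.34 and the cystic arrays at 7.97, 9.35 and 6.49. The mean difference on 211506_s_at, -2.32, was the smallest of the 4 genes.

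CXCL6, which binds both neutrophil receptors, was dim. Its 1 probe set was at 3.40, 4.24 and 2.10 in spiky and at 4.95, 5.62 and 3.92 in cystic colonies, and only the cystic day 10 array exceeded log2 5. The groups overlapped, since spiky day 10 lay above cystic day 15. Within each day the spiky value was lower, with differences of -1.55, -1.38 and -1.82. At day 5 and 15 both lines were under log2 5, so those differences give no direction. CXCL5, a chemokine that platelets and epithelial cells make, was under log2 5 on every array. Its 3 probe sets ran from 2.07 to 3.92, and 78.6% of all probe sets had a mean at or above that of the brightest of them. On that one, 215101_s_at, the spiky arrays were at 3.92, 3.44 and 3.46 and the cystic arrays at 3.30, 3.25 and 3.32, a non-overlap in the opposite sense at background level.

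**Figure D2:**
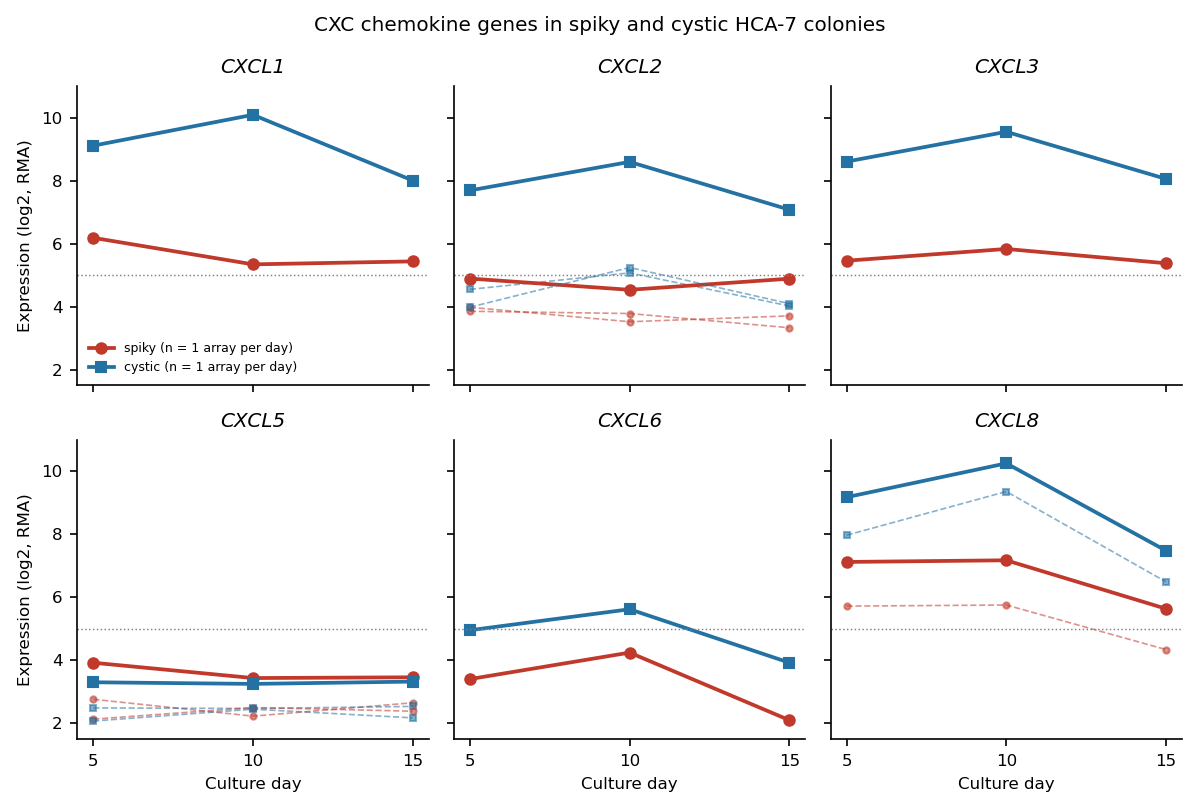
Expression (log2, RMA) of the 6 chemokine genes by culture day, with spiky arrays as red circles and cystic arrays as blue squares, 1 array per point. Solid lines show the probe set with the highest mean of each gene, dashed lines its other probe sets and the dotted line log2 5; on the solid lines CXCL1, CXCL2, CXCL3 and CXCL8 lie lower in spiky colonies at every day, and CXCL5 lies under the dotted line throughout.

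**Figure D3:**
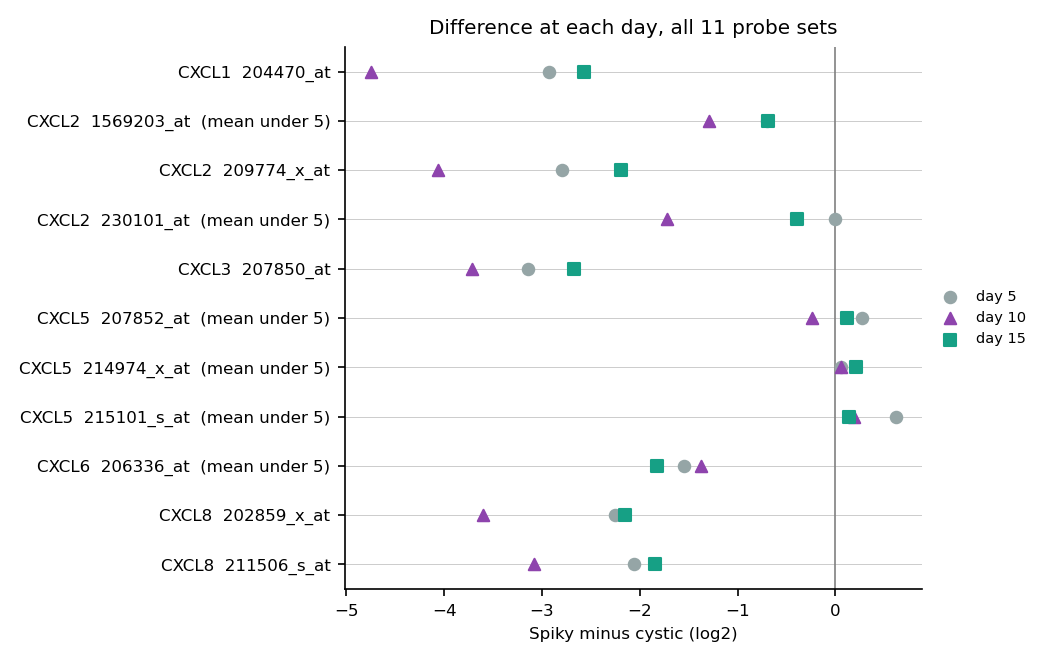
Spiky minus cystic difference (log2) at day 5, 10 and 15 on all 11 probe sets. On the 5 probe sets of CXCL1, CXCL2, CXCL3 and CXCL8 with means of at least 5, the day 10 difference is the lowest, from -4.75 to -3.08, while the CXCL5 probe sets lie near 0.

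The comparison of culture days asked whether the chemokine genes changed over time in both lines, and it is not the contrast that the genes were chosen on. CXCL8 fell between day 10 and day 15, with steps of -1.54 in spiky and -2.77 in cystic colonies on 211506_s_at. The fitted change was -2.15 (SE 0.27, log2), 4.45-fold lower, with limma adjusted p = 0.00190 over all tested genes. CXCL3 fell as well, with steps of -0.45 in spiky and -1.49 in cystic colonies (fitted -0.97, SE 0.25, adjusted p = 0.0242). CXCL1 was at 0.09 in spiky and -2.08 in cystic colonies for the same step and CXCL2 at 0.35 and -1.52, and neither passed (adjusted p = 0.128 and 0.304). So 2 of the 4 tested chemokine genes were called lower and 0 higher, where 22.6% of all tested genes were called, 14.0% lower and 8.66% higher. CXCL6, not tested, was at -2.14 in spiky and -1.70 in cystic colonies for this step. The spiky arrays of CXCL2 and CXCL6 were all under log2 5, so their spiky steps give no direction. The cystic day 15 array of CXCL6 (3.92) was under log2 5 too, so the size of its cystic step is not exact.

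The CXCL8 call for day 15 against day 10 held with any 1 array left out (adjusted p from 4.9e-05 to 0.00740), and the second CXCL8 probe set gave -2.14 with adjusted p = 0.00294 when every probe set was tested. The CXCL3 call was lost without the cystic array of day 5, 10 or 15 (adjusted p = 0.0510, 0.285 and 0.122, fitted change -0.97, -0.57 and -0.60). CXCL1 and CXCL2 passed when the spiky array of day 10 or of day 15 was left out, at -2.00 and -1.63 for CXCL1 and at -1.36 and -1.20 for CXCL2. Without the line as a term in the fit neither call was kept (adjusted p = 0.325 for CXCL8 and 0.759 for CXCL3). The second CXCL8 probe set was measured on the same arrays, so it is no independent check. Its spiky day 15 array (4.34) was under log2 5, so the size of its change is not exact.

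From day 5 to day 15 CXCL8 fell by 1.59 on the log2 scale (SE 0.27, limma adjusted p = 0.00328), with differences of -1.48 in spiky and -1.70 in cystic colonies. It was the 1 tested chemokine gene of 4 that passed, beside 32.3% of all tested genes called and 21.9% called lower. Without the spiky day 5 array its adjusted p was 0.0726, and without the line in the fit 0.418. CXCL1 was at -0.93 (SE 0.43, adjusted p = 0.130), and it passed without the cystic day 10, spiky day 10 or spiky day 15 array (-0.93, -0.93 and -1.56). CXCL2 and CXCL3 were both at -0.31, with adjusted p = 0.580 and 0.381. The median of all tested genes for this comparison was -0.11. The 3' over 5' difference of the ACTB control probe sets, a sign of RNA integrity, was 2.73, 2.74 and 3.10 on the spiky and 2.83, 3.18 and 3.28 on the cystic arrays at day 5, 10 and 15. That of GAPDH was 0.60, 0.63 and 0.49 on the spiky and 0.65, 0.79 and 0.63 on the cystic arrays. Among the cell type markers KRT18 at -0.66 and KRT8 at -0.48 were called lower at day 15 than at day 5 (limma adjusted p = 0.00106 and 0.0412). The fibroblast collagen COL1A1 at 1.38 and LYZ at 1.51 were called higher (limma adjusted p = 0.00203 and 0.000298). They were the only calls among 3 tested fibroblast and 5 tested leukocyte markers, whose medians were 0.34 and -0.003. Of 6 tested epithelial markers 2 were called lower and 0 higher (median -0.20). Over all tested genes 10.4% were called higher. The KRT8 call was lost without either day 5 array or the cystic day 15 array (adjusted p up to 0.404). Without the line in the fit KRT8 and LYZ no longer passed (adjusted p = 0.130 and 0.185), while KRT18 and COL1A1 did. The part of these measures in the CXCL8 change was not tested.

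From day 5 to day 10 none of the 4 passed. The fitted changes were 0.07 for CXCL1, 0.27 for CXCL2, 0.66 for CXCL3 and 0.56 for CXCL8, with limma adjusted p from 0.327 to 0.958. In this step 2 of 12317 genes (0.0162%) passed at all, and 13.4% had an unadjusted p under 0.05. In spiky colonies the step was -0.84 for CXCL1 and -0.36 for CXCL2, 0.37 for CXCL3, 0.05 for CXCL8 and 0.84 for CXCL6. The spiky arrays of CXCL2 and CXCL6 were all under log2 5, so their steps give no direction. In cystic colonies the values at day 10 lay above those of day 5 by 0.98 for CXCL1, 0.91 for CXCL2, 0.95 for CXCL3, 1.07 for CXCL8 and 0.67 for CXCL6.

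All 5 probe sets above the limit were thus highest at day 10 in cystic colonies, a shape shown by 27.4% of all tested genes. In spiky colonies 3 of the 5 were highest at day 10, beside 15.5% of all tested genes. Those 3 were the CXCL3 probe set and both CXCL8 probe sets. For CXCL8, day 10 lay only 0.03 and 0.05 (log2) above day 5 in spiky colonies. The shares count genes, while CXCL8 enters here with both its probe sets. A fit of the slope difference, spiky minus cystic per 10 days, called 0 of the 4 and 0 of all 12317 genes (2.51% had an unadjusted p under 0.05). The slope differences were 0.21 to 0.61, their SEs 0.88 to 1.31, and limma gave each an adjusted p = 0.999. Because the gap was widest at day 10, the gap at day 10 was also set against the mean gap of day 5 and 15, a contrast added after the values were seen, in a fit with 1 residual degree of freedom. It was -2.00 for CXCL1 (SE 0.39), -1.57 for CXCL2, -0.81 for CXCL3 and -1.13 for CXCL8. None passed, with limma adjusted p = 0.371 for CXCL1 and 0.99997 for the other genes, and 0 of all tested genes passed (2.48% at an unadjusted p under 0.05).

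The chemokine receptors and the other chemokines gave the setting of the 6 genes. CXCR1 and CXCR2, the receptors for these ligands, had means of 3.61 and 4.56 in spiky and 3.55 and 4.74 in cystic colonies (log2), and ACKR1, which binds chemokines without signalling, 3.64 and 3.58. PPBP and PF4, the platelet chemokine genes inside the cluster, had means of 3.30 and 3.16 in spiky and 3.89 and 3.18 in cystic colonies. These 5 genes were below the limit for testing. Of 20 other chemokine genes on the array only CCL2, CCL22 and CXCL16 reached it. CCL2, which attracts monocytes and lies on chromosome 17, was at 4.17, 5.20 and 4.33 in spiky and 8.18, 8.22 and 5.74 in cystic colonies, at least 4.96-fold lower in spiky colonies, since the spiky arrays of day 5 and 15 were under log2 5 (limma adjusted p = 0.00285). The call held with any 1 array left out and was lost with day left out of the fit (adjusted p = 0.140). Since CCL2 passed the limit through its cystic arrays, as CXCL2 did, nothing is read from this call. CCL22 was also lower, at -0.70 (adjusted p = 0.0297), and it did not pass with any of the 6 arrays left out (adjusted p from 0.0646 to 0.103). CCL20, the epithelial attractant of CCR6-bearing cells, was under the limit at 4.31, 3.81 and 4.09 in spiky and 4.62, 5.47 and 4.15 in cystic colonies, with its highest value also in cystic day 10.

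The neighbours on chromosome 4 were the 3 genes between the chemokine genes (PF4V1, PF4 and PPBP) and 6 protein-coding genes on either side, of which 10 of 12 were on the array. Of these 13 genes 5 were tested, and EREG, an EGFR ligand, passed as lower in spiky colonies (9.44, 9.05 and 7.56 against 9.72, 9.93 and 9.26, -0.95, limma adjusted p = 0.0241). With 1 array left out its adjusted p stayed between 0.00701 and 0.0236, while the difference was -0.58 without either day 15 array. MTHFD2L, the nearest gene on the CXCL2 side, was at -0.42 (adjusted p = 0.0629), and ANKRD17, COX18 and PARM1 did not pass. BTC, another EGFR ligand, was under the limit, at 4.56, 3.75 and 3.22 in spiky and 5.90, 5.81 and 4.08 in cystic colonies. The median difference over 438 other tested genes of chromosome 4 was 0.02.

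Of 18 tested epithelial NF-kB targets 11 were called lower and 0 higher, with a median of -0.89, where 7.74% of all tested genes were called lower, 3.65% higher and the median of all was -0.03. Some results of this contrast for such genes were known when the list was drawn up. MMP7, a matrix protease, was at -2.48 (SE 0.22), ICAM1, the adhesion molecule that neutrophils bind, at -1.04 (SE 0.11) and PTGS2, the inducible cyclooxygenase, at -0.87 (SE 0.12), with limma adjusted p = 0.000371, 0.000674 and 0.00233, each kept with any 1 array left out. The count was 4 without either day 5 array, 6 without the cystic day 10 array and 7 without the spiky day 10 array, and 13 without either day 15 array. It was 7 without the intensity trend in the variance prior and 2 with day left out of the fit, where PTGS2 no longer passed (adjusted p = 0.102). Of 19 tested subunit and regulator genes 4 were called lower and 0 higher (median -0.37). The feedback inhibitor TNFAIP3 (A20) was at -0.81 (adjusted p = 0.0207) and NFKBIZ, the nuclear cofactor IkB-zeta, at -0.89 (adjusted p = 0.0102). Both lost the call without either day 5 or either day 10 array (adjusted p up to 0.103 and 0.0675), and with one of those 4 arrays left out the count was 0. It was 8 without either day 15 array, 2 without the trend (NFKBIZ lost, adjusted p = 0.0564) and 0 with day left out of the fit. The subunits RELA at 0.24 and NFKB1 at -0.47 did not pass, nor did the inhibitor NFKBIA at -0.45 (adjusted p = 0.233, 0.0906 and 0.121).

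Among 19 tested inducing cytokine and receptor genes 3 were called lower and 1 higher in spiky colonies, with a median of -0.18, beside 7.74% lower and 3.65% higher over all tested genes. Without either day 5 array 1 was lower and 0 higher, without either day 10 array 2 were lower and 1 higher, and without either day 15 array 4 were lower and 2 higher. IRAK2, a kinase of the interleukin 1 receptor pathway, was at -1.32 (SE 0.27, limma adjusted p = 0.0148). It passed with any 1 array left out, but not without the trend or with day left out of the fit (adjusted p = 0.0621 and 0.198), and these settings left 0 lower calls in the list. TNFRSF1B, a TNF receptor, was at 0.93 (adjusted p = 0.00706, and up to 0.0776 without either day 5 array and 0.268 with day left out of the fit). IL1A, itself an inducer of these chemokines, was at 5.12, 5.81 and 6.996 in spiky and 4.25, 5.98 and 6.75 in cystic colonies and did not pass (0.32, adjusted p = 0.442). IL1B averaged 4.20 in spiky and 4.83 in cystic colonies and TNF 2.82 and 2.90, both under the limit. In the lists of AP-1, C/EBP and other factors 1 of 15 genes was called lower and 2 higher, and of 6 mRNA decay and stability factors 1 was called lower and 1 higher, counts to be read beside the same 7.74% and 3.65%. Without the trend, with day left out of the fit or without either day 5 array both lists had 0 calls, without either day 10 array 0 factor genes were lower, and without either day 15 array 5 were. In the decay list 0 were lower without the cystic day 10 array.

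**Figure D4:**
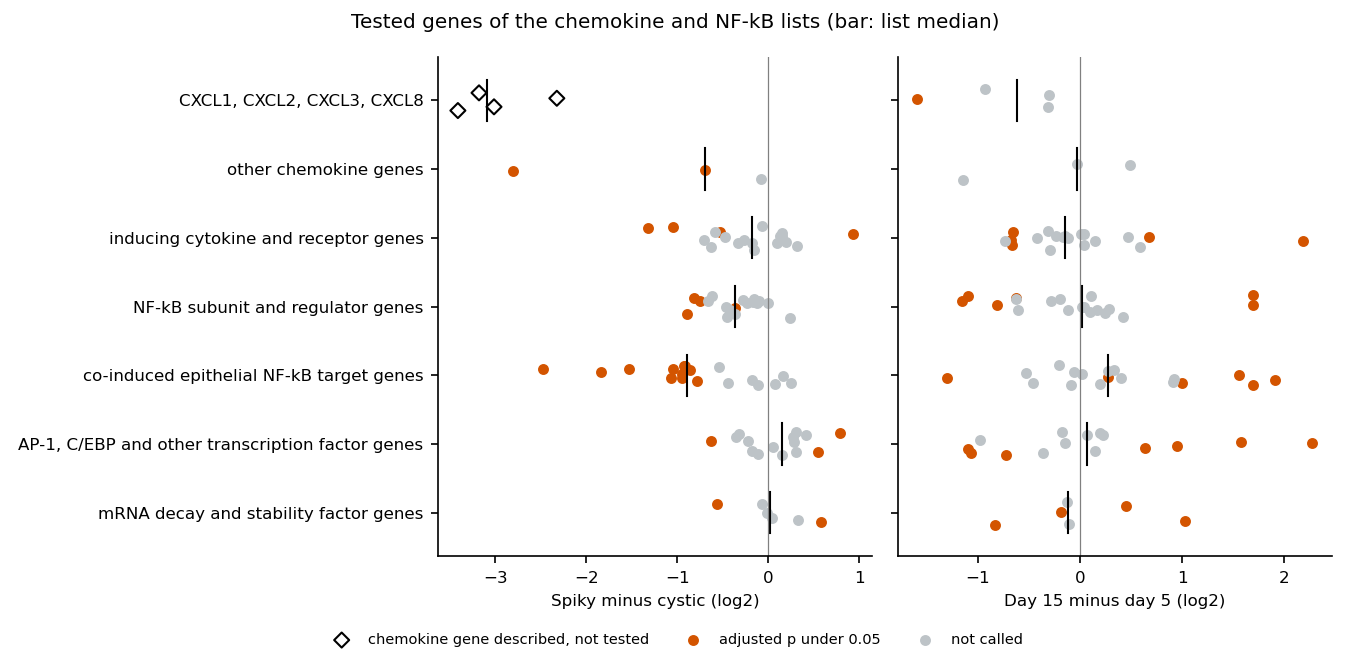
Differences (log2) of the tested genes in each list, spiky minus cystic on the left and day 15 minus day 5 on the right, with orange points for genes called by limma at an adjusted p under 0.05 and a bar at each list's median. The 4 chemokine genes, open diamonds on the left, lie between -3.41 and -2.32 and below all genes of the other lists except CCL2 and MMP7. They were chosen with this contrast known, so their place is a description only.

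Inducible genes of the same pathway were also set against culture day. IL1A rose by 2.19 on the log2 scale between day 5 and day 15 (SE 0.27, limma adjusted p = 0.00101). Its cystic day 5 array was under log2 5, so the size of this rise is not exact. NFKBIZ rose by 1.70, IKBKB, a kinase of the NF-kB pathway, by 1.70, and LCN2, an antimicrobial iron-binding protein, by 1.91 (adjusted p = 0.000909, 0.000666 and 0.000903). These 4 calls held with any 1 array left out, and those of NFKBIZ and LCN2 were lost without the line in the fit (adjusted p = 0.0732 and 0.0640). CFB, a complement factor, rose by 1.56 (adjusted p = 0.00231, and 0.0575 without the spiky day 5 array). NFKB1 fell, at -1.10 (adjusted p = 0.00333, and 0.0682 without the spiky day 5 array), and IL32 fell, at -1.30 (adjusted p = 0.00145). Without the line in the fit CFB and NFKB1 no longer passed (adjusted p = 0.0826 and 0.0616), while IL32 did. Of the 18 epithelial NF-kB targets 5 rose and 1 fell between day 5 and 15, where 10.4% of all tested genes rose and 21.9% fell, and the count that rose was 1 without the spiky day 5 array and 4 to 7 without any other. Of the 19 subunit and regulator genes 2 rose and 4 fell. With the spiky day 5 array left out 0 fell, with the cystic day 5 array left out 2 fell, and without the cystic day 15 array 5 rose.

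Among factors that act with NF-kB at the CXCL8 promoter or on its RNA, 4 of 15 AP-1, C/EBP and other factor genes rose and 3 fell from day 5 to day 15, beside 10.4% and 21.9% of all tested genes. Without the spiky day 5 array 2 rose and 1 fell, and without the cystic day 15 array 6 rose. FOS was at 2.27 and EGR1 at 1.58 (limma adjusted p = 0.000882 and 0.000170), both kept with any 1 array left out. JUN was at -1.10, FOSL1 at -1.07 and HIF1A at -0.73 (adjusted p = 0.00921, 0.00426 and 0.00561). These calls were lost without the cystic day 5 array for JUN (0.123) and without the spiky day 5 array for FOSL1 and HIF1A (0.0901 and 0.103). With the line left out of the fit JUN and FOSL1 no longer passed (adjusted p = 0.0642 and 0.167), while HIF1A did. Of 6 mRNA decay and stability factors 2 rose and 2 fell, and 0 moved without the spiky day 5 array. ZFP36 (tristetraprolin), which promotes decay of chemokine messenger RNAs, rose by 1.03 (SE 0.20, adjusted p = 0.00505, and 0.100 without the spiky day 5 array). ELAVL1 (HuR), which stabilises such RNAs, was at -0.84 (adjusted p = 0.00353, and 0.0860 without the spiky day 5 array). HNRNPD, a decay factor, was at -0.19 (adjusted p = 0.0357). This call was lost without any 1 array other than cystic day 15, and its sign turned with other probe sets of the gene. With the line left out of the fit ZFP36 and HNRNPD no longer passed (adjusted p = 0.0594 and 0.138), while ELAVL1 did.

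**Figure D5:**
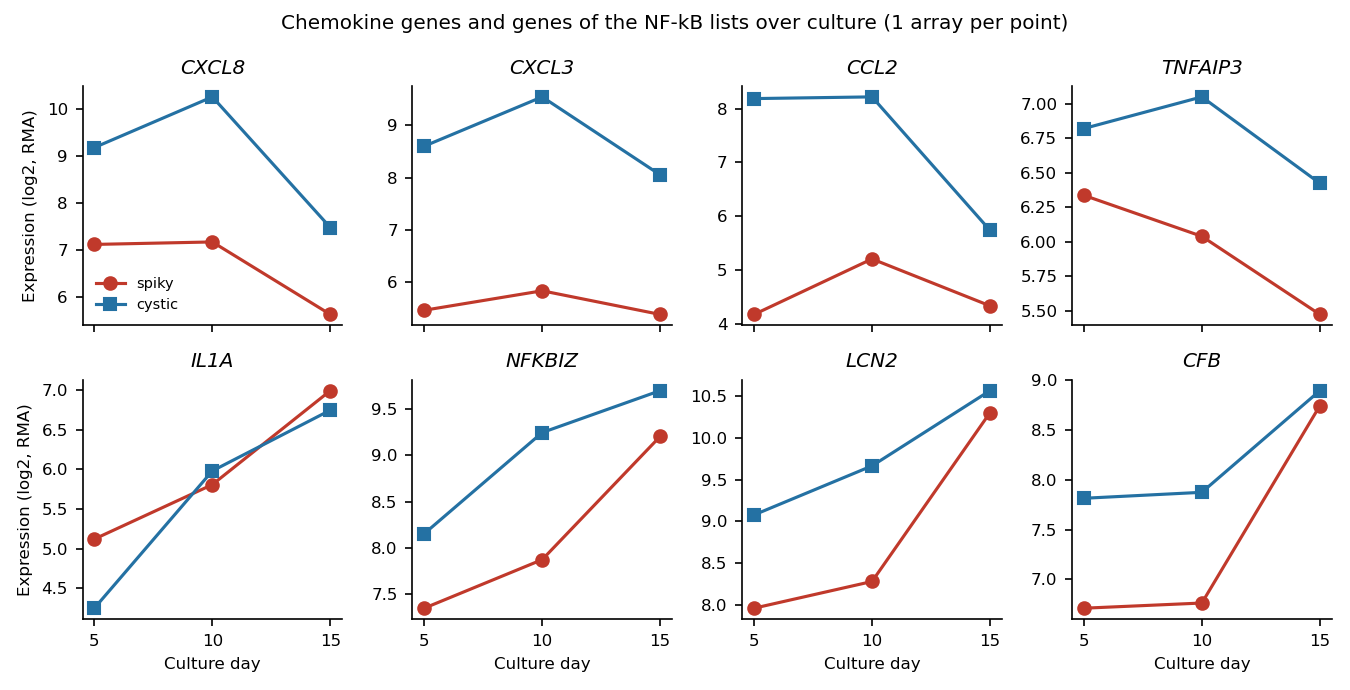
Expression (log2, RMA) by culture day of CXCL8, CXCL3, CCL2 and TNFAIP3 (top) and IL1A, NFKBIZ, LCN2 and CFB (bottom), spiky in red and cystic in blue, 1 array per point; each panel has its own vertical scale. Values at day 15 lie below those of day 10 in cystic colonies for the 4 genes on top and above them for the 4 genes below.

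The genes with the most similar profile were sought among 1905 tested genes with an SD of at least 0.5, by Pearson's r over the 6 arrays with the mean centred profile of CXCL1, CXCL2, CXCL3 and CXCL8. The arrays fall into 2 lines, so r is a description. The highest values belonged to LAMP3 (0.995), GPALPP1 (0.990), GPR180 (0.986), RASSF9 (0.983), MRPS31 (0.981), AKAP5 (0.980), NAXD (0.979), NAA16 (0.977), SDR16C5 (0.976) and APOBEC3B (0.976). LAMP3, a lysosomal membrane protein gene, was at 5.34, 5.26 and 5.25 in spiky and 6.36, 6.59 and 6.04 in cystic colonies, a smaller difference than in the chemokine genes. RASSF9 was at 4.90, 4.51 and 4.72 in spiky and 6.15, 7.04 and 5.71 in cystic colonies. All its spiky arrays were under log2 5, so it passed the limit through the cystic arrays and nothing is read from its r. GPALPP1, GPR180, MRPS31, NAXD and NAA16 lie on chromosome 13. The opposite profile was nearest in FSCN1 (-0.998), which encodes the actin bundler fascin, in NRP1 (-0.991), CAMK2N1 (-0.991) and COL13A1 (-0.989) and in DKK3 (-0.969). FSCN1 was at 7.80, 7.77 and 8.02 in spiky and 6.52, 6.18 and 6.98 in cystic colonies, lowest on the array where the chemokines were highest.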

How the data were processed

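RMA was used by the authors to make the deposited log2 values, per the submitters' processing notes, and no version is given there. The platform's gene table named the probe sets. Symbols were brought up to date through gene IDs and RefSeq (GRCh38.p14), where 41043 of 41097 probe sets with 1 symbol had a match, and 0 chemokine probe sets carried several symbols. For each of 19775 genes the brightest such probe set was kept, and the 12317 whose mean reached log2 5 entered limma 3.58.1 (R 4.3.3). The model on all 6 arrays had morphology and culture day as factors (2 residual degrees of freedom), or morphology by numeric day, with a trended variance prior. P-values were two-sided and Benjamini-Hochberg adjusted over all tested genes at a threshold of 0.05. Day is a label of the design and served as the block; same-day arrays of the lines, as deviations from their line means, correlated at 0.608 (day 5), 0.496 (day 10) and 0.719 (day 15) across genes.

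Folds that involve arrays under log2 5 are bounds, with those arrays set to 5. The chemokine genes and the gene lists were chosen with earlier results of these data known. From each list, at most 3 called genes per direction with the smallest p could be named, as well as 13 genes fixed by name; CXCL16, CSF1R, CORO1A, CD3D and the other markers, and the chromosome 4 neighbours, lie outside that rule. The 10 highest and 5 lowest correlations give the genes of similar and opposite profile. The fits were tested on simulated data. Alternatives changed the level filter, the choice of probe set, array scaling, the variance prior or the block, or left out an array. The number of arrays limits the precision. Figures were drawn with matplotlib 3.10.9.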

Additional observations from a re-analysis of the deposited data

Results flagged for a closer look

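For CXCL1 the values of the lines differed in sign at both steps of the culture. From day 5 to day 10 the CXCL1 step was -0.843 in spiky colonies, against 0.979 in cystic colonies (log2). From day 10 to day 15 it was 0.0943 in spiky colonies, a value close to 0, against -2.08 in cystic colonies. For CXCL2 the steps were -0.357 and 0.353 in spiky colonies, against 0.905 and -1.52 in cystic colonies, but all 3 spiky arrays were under log2 5, so the spiky steps give no direction. Each value rests on 1 array per line and day, and for single steps the difference was not tested. The slope difference and the gap at day 10, given above, did not pass.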

How the results depend on the processing

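The median spiky minus cystic difference of the 4 chemokine genes, -3.10, ran from -3.43 to -2.62 with 1 array left out. The 1403 genes called for spiky against cystic were 2698 when every probe set was tested, 691 without an intensity trend, 72 with no replicate block and 507 to 2157 with 1 array left out. The 2 genes called for day 10 against day 5 were 0 with no filter, without the trend or with no replicate block, 1 with the mean of a gene's probe sets, 70 with the probe set of largest SD, 134 with every probe set and 0 to 469 with 1 array left out. The 2786 genes for day 15 against day 10 were 5251 with every probe set, 1444 without the trend, 337 with no replicate block and 1019 to 3577 with 1 array left out. The 3982 genes for day 15 against day 5 were 8708 with every probe set, 1457 with no replicate block and 761 to 4318 with 1 array left out. The slope difference called 0 genes, and 0 to 33 with 1 array left out. Of the 4 tested chemokine genes, 1 was called for day 15 against day 5. With a minimum of log2 4 it was 2 of 5 and with no filter 2 of 6, where 3829 and 3459 of all genes were called. In these settings genes under the log2 5 limit were tested as well. The count was 0 with no replicate block or without probe sets ending in _x_at or _s_at (CXCL8 has no other), and 0 to 2 with 1 array left out. Without the trend CXCL3 had adjusted p = 0.0628 for day 15 against day 10. HNRNPD, an RNA decay factor at -0.19 for day 15 against day 5, was at 1.42 with the probe set of largest SD and at 0.213 with the mean of its probe sets. EREG did not pass without the trend, with no filter, with the mean of its probe sets or with no replicate block (adjusted p = 0.107, 0.0535, 0.0774 and 0.551). The causes were not tested. Lower calls were 67.9% of calls for spiky against cystic and 55.5% with arrays centred on their medians; for day 15 against day 5 they were 67.7%, 76.4% centred and 55.1% with cyclic loess, and for day 15 against day 10 61.7%, 73.0% and 50.5%. With 6 arrays, 1 per line and day, line, colony shape and any array effect cannot be told apart, and arrays under log2 5 give only bounds.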
